A study of Mus musculus with 6 samples.

Results

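A set of 9 immediate early response genes was followed in CD31+ckit+Vmed and CD31+ckit+Vhigh cells: *Fos*, *Fosb*, *Jun*, *Junb*, *Jund*, *Egr1*, *Ier2*, *Atf3* and *Dusp1*. They were chosen by symbol as AP-1 subunits and other immediate early genes known to react to cell dissociation and sorting. The rule uses no measured value, but the set was chosen with earlier results of these data known. All 9 were found among the 24062 genes of the count files, and all 9 were among the 12688 genes that passed the filter on low counts. The cells were sorted from the aorta-gonad-mesonephros region (AGM) of mouse embryos at embryonic day 10.5, where the first hematopoietic stem cells form. RNA from each sorted fraction was sequenced in 3 libraries, numbered 1 to 3 in both fractions. The embryos of both fractions carried Gata2Venus, a Venus fluorescent reporter placed behind *Gata2*, on a C57BL/6JOlaHsd background as labelled. No treatment other than sorting is labelled, and all cells of both fractions passed through collagenase dissociation and flow cytometric sorting for CD31, ckit and Venus. The fractions differ in Venus: the cells labelled G2Vi are the medium Venus fraction (Vmed) and those labelled G2Vh the high Venus fraction (Vhigh). Venus reports *Gata2* transcription and is not itself a cell type, and the number of embryos behind a library is not given in the sources used here. The study describes its RNA sequencing values as coming from independent experiments, while the labels do not say which embryos or sorts a library came from.

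Immediate early genes are transcribed within minutes of a stimulus, without new protein synthesis, and their mRNAs are short-lived. Growth factor and stress signals reach them through MAP kinases, which act on SRF with its ternary complex factors at CArG boxes and on CREB and ATF proteins at cAMP response elements (CRE). FOS and JUN proteins pair to form AP-1, EGR1 and ATF3 are further transcription factors induced in the same wave, and DUSP1 is a phosphatase that switches MAP kinases off again. Enzymatic dissociation of tissue is a known inducer of these genes, which makes them a common check on sorted cells.

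The libraries held 8296831 to 12035206 counts on genes, so that 3 counts, the smallest number taken as shown, corresponded to 0.249 to 0.362 CPM (gene counts scaled to the same total in each library). These limits cover counting error only, since the reads carry no molecular identifiers. CPM were computed from the gene total of each library, and the log2 values and tests use TMM-normalized library sizes. The libraries numbered 3 stood apart in Rn45s, the ribosomal RNA precursor, which took 10.5% of gene counts in Vmed and 7.47% in Vhigh against 0.887% to 1.53% in the other 4 libraries. The 12 markers of hematopoietic stem and progenitor cells, the labelled cell type, summed to 496, 1249 and 1251 CPM in Vmed and to 1403, 3722 and 3931 CPM in Vhigh, and *Spn* and *Gfi1* were at 0 in at least 1 Vmed library. *Gata2* itself was at 50.3, 29.4 and 68.3 CPM in Vmed and at 39.2, 82.5 and 142 CPM in Vhigh, so that the library labelled Vhigh replicate 1 was below Vmed replicates 1 and 3. Because these are bulk libraries, fewer cells of a type and less RNA per cell cannot be told apart.

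As a group, the 9 genes were most abundant in the libraries numbered 3 of both fractions. Their summed level was 434, 480 and 1553 CPM in the Vmed replicates 1, 2 and 3, and 301, 214 and 1184 CPM in the Vhigh replicates. Replicate 3 was thus 3.40-fold above the mean of replicates 1 and 2 in Vmed and 4.60-fold above it in Vhigh. Without *Jun*, these values were 2.62-fold and 2.91-fold. The fractions overlapped, with 823 ± 633 CPM (SD, n = 3) in Vmed and 566 ± 537 CPM (SD, n = 3) in Vhigh. Even in the library with the most, these genes made up 0.155% of all gene counts. The most abundant member was *Fos* in Vmed replicates 1 and 2 and in Vhigh replicate 2, *Jun* in both libraries numbered 3, and *Dusp1* in Vhigh replicate 1. With Rn45s taken out of the library totals, the sums were 1735 CPM in Vmed replicate 3, 1280 CPM in Vhigh replicate 3 and 216 to 485 CPM in the other 4 libraries.

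**Figure D1:**
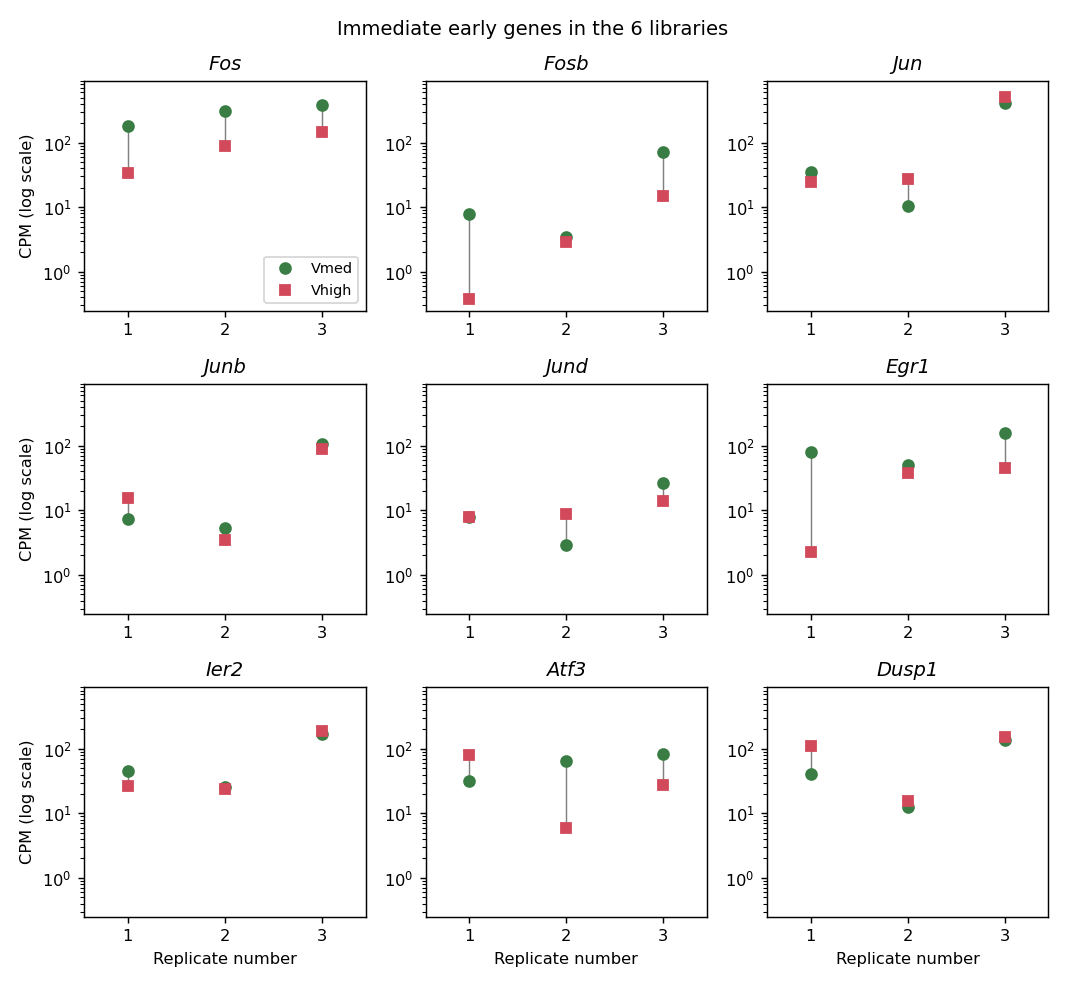
Level of each of the 9 genes in CPM (log axis) by replicate number, with circles for Vmed, squares for Vhigh and a grey line joining libraries of the same number. The circles of Fos and Egr1 lie above all squares of the same gene, while the symbols of Jun, Junb and Ier2 are highest at number 3 in both fractions.

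*Fos*, which encodes the most strongly inducible partner of JUN in AP-1, lies on chr12:85473890-85477273 of GRCm38 on the plus strand and has 4 exons. It was at 178, 305 and 385 CPM in Vmed replicates 1, 2 and 3 and at 33.8, 89.0 and 146 CPM in Vhigh. Each Vhigh library was below each Vmed library, and replicate 3 was the highest of both fractions. The means were 289 ± 104 CPM in Vmed and 89.7 ± 56.2 CPM in Vhigh (SD, n = 3). On the log2 scale, Vhigh differed from Vmed by -1.73 (standard error 0.59), with an unadjusted p = 0.0173 and an adjusted p = 0.9998 by edgeR's quasi-likelihood test, which did not pass the threshold of 0.05. The exact two-sided permutation test gave p = 0.1, the smallest that 3 libraries against 3 allow. *Fos* was lower in Vhigh in 3 of 3 same-numbered pairs, by log2 differences of -2.34, -1.92 and -1.41. With the replicate number as a block the difference was -1.89 (standard error 0.30), with an adjusted p = 0.609 by the quasi-likelihood test and an adjusted p = 0.0193 by edgeR's likelihood ratio test. That last fit is the only one of those tried in which a member passed the threshold between the fractions, and it called 0.583% of all genes.

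*Fosb*, a close relative of *Fos* with the same DNA-binding and leucine zipper domains, lies on chr7:19302696-19310051, minus strand, with 5 exons. It had 68, 29 and 699 counts in the Vmed libraries and 4, 31 and 177 counts in the Vhigh libraries, or 7.78, 3.50 and 71.9 CPM against 0.375, 2.85 and 14.7 CPM. Most of its counts came from replicate 3 of both fractions, and the fractions overlapped. The fitted difference of -2.25 (log2, standard error 1.67; unadjusted p = 0.226, adjusted p = 0.9998 by edgeR's quasi-likelihood test) was within the spread between replicates, and was 0.047 without Vmed replicate 3. It was lower in Vhigh in 3 of 3 pairs, though by only -0.41 on the log2 scale in pair 2.

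*Jun*, the partner of FOS in AP-1, is a single-exon gene on chr4:95049034-95052222, minus strand. Its level was 35.1, 10.6 and 416 CPM in Vmed and 24.3, 27.4 and 511 CPM in Vhigh. Both libraries numbered 3 were far above the other 4, by 18.2-fold over the mean of replicates 1 and 2 in Vmed and by 19.8-fold in Vhigh. Between the fractions it differed by 0.27 on the log2 scale (standard error 1.37; adjusted p = 0.9998 by edgeR's quasi-likelihood test), and this value ranged from -2.56 without Vhigh replicate 3 to 3.01 without Vmed replicate 3. *Junb*, a weaker activator of the same family on chr8:84974484-84978718 (minus strand, 2 exons), was at 7.44, 5.30 and 108 CPM in Vmed and at 15.7, 3.41 and 87.5 CPM in Vhigh. It too was highest in both libraries numbered 3 and overlapped between the fractions, at a fitted log2 difference of -0.18 (standard error 1.44). *Jund*, the more steadily expressed member of the family and a single-exon gene on chr8:70698949-70700616 (plus strand), was at 8.01, 2.89 and 26.4 CPM in Vmed and at 7.88, 8.84 and 14.0 CPM in Vhigh. Its libraries numbered 3 were above the other 4 by less, and the fitted log2 difference between the fractions was -0.32 (standard error 1.53).

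*Egr1*, a zinc finger transcription factor induced by MAP kinase signaling, lies on chr18:34859823-34864984, plus strand, with 3 exons. It was at 79.9, 49.4 and 159 CPM in Vmed and at 2.25, 37.4 and 45.2 CPM in Vhigh. As for *Fos*, each Vhigh library was below each Vmed library, and Vhigh replicate 1 was the lowest. The fitted log2 difference was -1.85 (standard error 0.98; unadjusted p = 0.0972, adjusted p = 0.9998 by edgeR's quasi-likelihood test; exact two-sided permutation p = 0.1). It was lower in Vhigh in 3 of 3 pairs, by -4.98, -0.54 and -1.82 on the log2 scale.

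*Ier2*, a single-exon gene on chr8:84661331-84662852 (minus strand) that encodes a nuclear protein of the growth factor response, was at 46.1, 25.6 and 169 CPM in Vmed and at 26.8, 23.5 and 188 CPM in Vhigh. Libraries of the same number were close to each other, within 0.72 on the log2 scale in each pair, and the fitted log2 difference between the fractions was -0.03 (standard error 1.00). *Atf3*, a stress-induced bZIP factor that acts mainly as a repressor, lies on chr1:191170296-191218039 (minus strand, up to 5 exons in a transcript). It was at 31.5, 65.1 and 82.6 CPM in Vmed and at 80.0, 5.89 and 27.8 CPM in Vhigh. Replicate 1 had the highest Vhigh level but the lowest Vmed level, so that the pair differences of *Atf3* were 1.40, -3.56 and -1.58 on the log2 scale, and the fit gave a log2 difference of -0.58 (standard error 1.01). This was -0.02 without Vhigh replicate 2, -1.85 without Vhigh replicate 1 and -1.33 in the replicate block.

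*Dusp1*, which encodes the phosphatase that inactivates MAP kinases, lies on chr17:26505590-26562128 (minus strand, up to 6 exons in a transcript). It was at 40.5, 12.5 and 136 CPM in Vmed and at 109.8, 15.4 and 150.1 CPM in Vhigh. Replicate 2 was the lowest and replicate 3 the highest of both fractions. It was higher in Vhigh in 3 of 3 pairs, by 1.49, 0.15 and 0.12 on the log2 scale, and the fit gave a log2 difference of 0.55 (standard error 1.02; adjusted p = 0.9998 by edgeR's quasi-likelihood test). It was 0.06 without Vmed replicate 2 and 1.80 without Vmed replicate 3. *Dusp1* thus lay on the opposite side of 0 from *Fos* and *Egr1*, though the difference between these genes was not tested.

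Between the fractions as a whole, none of the 9 genes passed the threshold by edgeR's quasi-likelihood test, nor did any of the 12688 genes tested (0%). At an unadjusted p under 0.05 there was 1 member, *Fos*, beside 259 of all genes (2.04%). EdgeR's likelihood ratio test called 21 of all genes (0.166%), DESeq2 called 86 of the 14131 with an adjusted p (0.609%) and limma-voom called 0. No member was among them, though DESeq2 gave *Jun* no p-value. The Vhigh libraries lay entirely below the Vmed libraries for 2 of 9 members, *Fos* and *Egr1*, and for 5.3% of all genes, and entirely above them for no member and for 3.64% of all genes. This count of 2 was the same under TMM, RLE, upper quartile and library size normalization. The fitted log2 fold change was below 0 for 7 members and above 0 for *Jun* and *Dusp1*, with a median of -0.32 beside -0.02 over all genes. The direction of this median turned on 1 library, as it was 0.86 without Vmed replicate 3. It stayed below 0 without any other library, at -1.95 without Vhigh replicate 3, -0.72 without Vmed replicate 2 and -0.67 without Vmed replicate 1. It was -0.21 without Vhigh replicate 1 and -0.02 without Vhigh replicate 2. *Fos*, *Fosb* and *Egr1* were lower in 3 of 3 pairs, as were 16.5% of all genes, and *Dusp1* was higher in 3 of 3 pairs, as were 15.5%. The spread between replicates was wide, with a biological coefficient of variation of 1.16 over all genes. The study, also with edgeR at a false discovery rate of 0.05, reported genes that differed between these fractions. Its test function is not named, and why the calls differ was not tested.

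**Figure D2:**
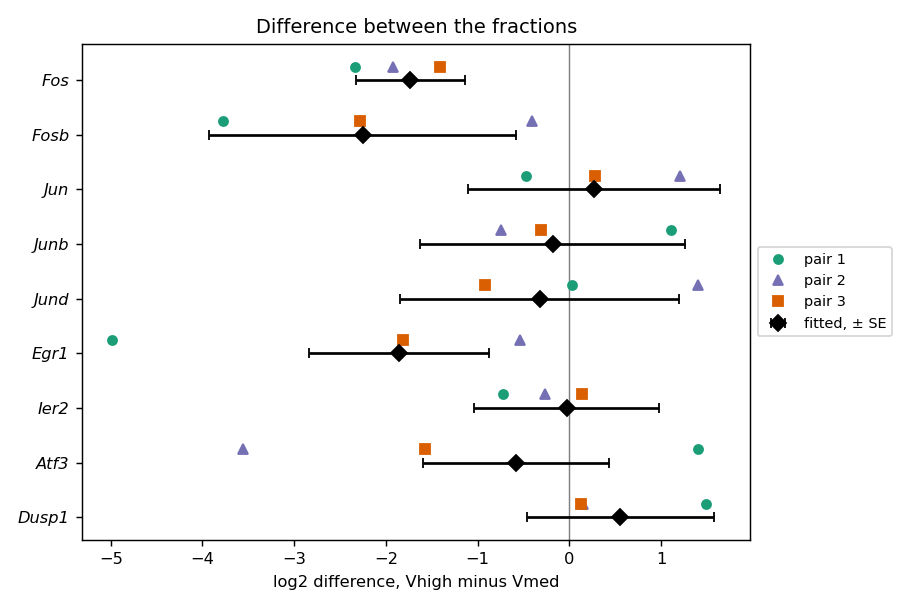
Log2 difference of Vhigh minus Vmed for each gene: colored symbols are the 3 same-numbered pairs of libraries, and black diamonds with bars are the fitted log2 fold change ± standard error. All 3 pairs of Fos, Fosb and Egr1 lie left of 0 and all 3 of Dusp1 right of it, while those of Jun, Junb, Jund, Ier2 and Atf3 lie on both sides.

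Markers of macrophages and of mesenchyme were also lower in Vhigh, as were *Fos* and *Egr1*. The 12 macrophage and monocyte markers summed to 2120, 1129 and 1066 CPM in Vmed and to 783, 203 and 180 CPM in Vhigh, and all 12 had a fitted log2 fold change below 0. The defining marker *Emr1* was at 60.1, 34.6 and 29.6 CPM in Vmed and had 0, 0 and 3 counts in Vhigh, and *C1qa* and *Aif1* were each at 0 in at least 1 Vhigh library. The 12 mesenchyme and mural markers summed to 2440, 4948 and 5531 CPM in Vmed and to 833, 678 and 372 CPM in Vhigh, with 11 of 12 fitted below 0 and *Twist1* at 0 in at least 1 library of each fraction. Mesenchymal cells lack CD31, and the cells were sorted for CD31 and ckit. The source of this mesenchyme RNA was not tested. Of the other lists with more markers fitted lower in Vhigh, the 12 endothelial markers had 11 below 0 (median -0.76), the 7 tested megakaryocyte markers had 5 (643, 877 and 385 CPM in Vmed and 159, 418 and 332 CPM in Vhigh, summed) and the 5 tested erythroid markers had 4 (601, 361 and 180 CPM against 233, 98.2 and 149 CPM). Going the other way, all 12 stem and progenitor markers and 4 of the 5 tested neutrophil markers were fitted higher in Vhigh. Of the 2 tested mast cell markers, 1 was fitted lower and 1 higher. The part of any of these cell types in the levels of *Fos* and *Egr1* was not tested.

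The balance of the subunits differed between libraries as well. When levels were divided by exon length (RPKM, with TMM library sizes), the *Jun* family (*Jun*, *Junb* and *Jund*) against the *Fos* family (*Fos* and *Fosb*) had a log2 ratio of -2.01, -4.15 and 0.14 in Vmed and of 0.41, -1.32 and 1.68 in Vhigh. The ratio was higher in Vhigh in each same-numbered pair, by 5.37-fold, 7.11-fold and 2.90-fold, while the fractions overlapped, at -2.01 ± 2.14 and 0.26 ± 1.5 (log2, SD, n = 3). *Jun* family mRNA was more abundant than *Fos* family mRNA in Vmed replicate 3, Vhigh replicate 1 and Vhigh replicate 3. In Vhigh replicate 1, this came from low *Fos* family RNA (15.8 RPKM, against 80.9 RPKM in Vmed replicate 1) with about the same *Jun* family RNA (20.9 against 20 RPKM). In the libraries numbered 3, *Jun* family RNA was high in both fractions (199 and 211 RPKM), while *Fos* family RNA was at 181 RPKM in Vmed and 66.0 RPKM in Vhigh. These ratios are a description of the libraries and were not tested.

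**Figure D3:**
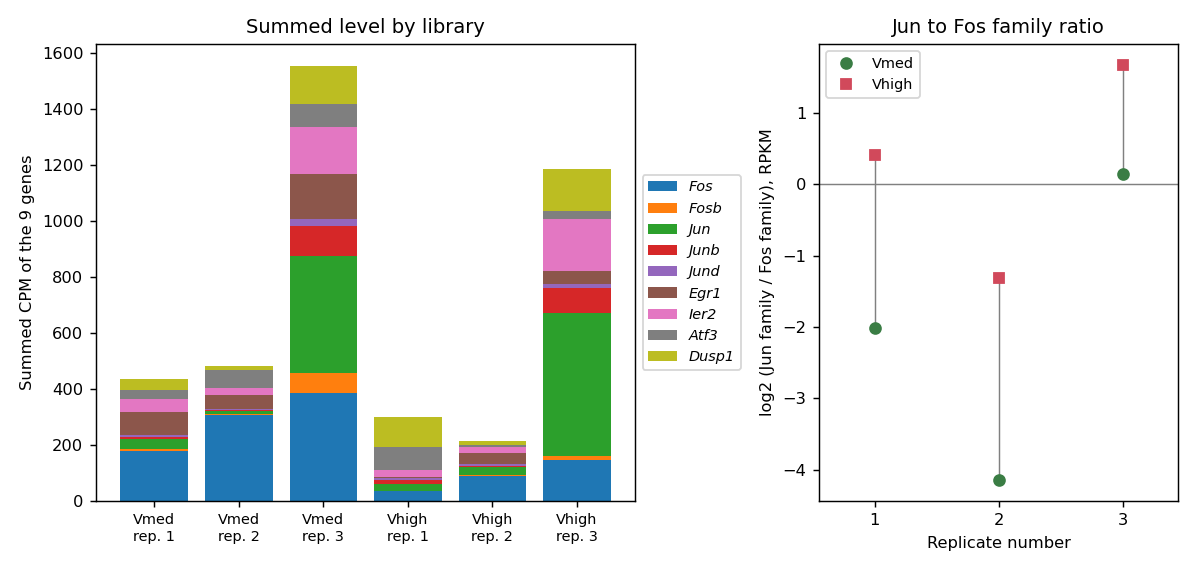
Left, the CPM of the 9 genes stacked for each library; right, the log2 ratio of Jun family to Fos family RPKM by replicate number, with grey lines joining the fractions. The stacks of both libraries numbered 3 (1553 and 1184 CPM) are taller than the other 4, and the Vhigh square lies above the Vmed circle at each number.

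Ordered by the median RPKM over the 6 libraries, *Fos* was first (71.6 RPKM), followed by *Ier2* (25.5), *Dusp1* (24.5), *Atf3* (22.4), *Egr1* (10.5), *Jun* (9.95), *Junb* (5.42), *Jund* (5.10) and *Fosb* (0.927). *Fos* lay above 94.5% of the 12613 tested genes with a length and *Fosb* above 17.3%. Neighbors in this order were not separated beyond their spread, as the ranges over the 6 libraries overlapped for each neighboring pair, with *Fos* between 15.7 and 169 RPKM and *Ier2* reaching 126 RPKM. *Jun* stood well above its median place in both libraries numbered 3, where it was first in Vhigh replicate 3 (164 RPKM) and second in Vmed replicate 3 (134 RPKM). *Atf3* was first in Vhigh replicate 1 (40.6 RPKM), *Fos* was first in the other 4 libraries, and *Fosb* was last in all 6.

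The replicate numbers were then compared in a model with fraction and replicate number, by a quasi-likelihood test of both replicate terms. Relative to replicate 1, *Jun* had a log2 difference of -0.97 (standard error 0.48) in replicate 2 and of 3.86 (standard error 0.48) in replicate 3, with an unadjusted p = 0.00017, the 13th smallest of all genes, and an adjusted p = 0.153 by edgeR's quasi-likelihood test. *Ier2* differed by -0.75 and 2.28 (standard errors 0.56 and 0.56; adjusted p = 0.192), *Junb* by -1.61 and 3.01 (standard errors 1.00 and 0.99; adjusted p = 0.241) and *Dusp1* by -2.53 and 0.99 (standard errors 0.63 and 0.63; adjusted p = 0.211), all by the same test. These 4 genes share a shape, lowest in replicate 2 and highest in replicate 3 of both fractions, although *Jun* in Vhigh was lowest in replicate 2 only with TMM or RLE normalization. *Fos* followed another, at 0.86 and 1.55 above replicate 1 (standard errors 0.37 and 0.37; adjusted p = 0.285), so that replicate 1 was its lowest. *Fosb* was 3.83 higher in replicate 3 with a standard error of 1.63, *Egr1* 2.03 higher with one of 1.12 and *Jund* 1.31 higher with one of 1.78. *Atf3* was the only member fitted lower in replicate 3, at -0.69 (standard error 1.24).

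**Figure D4:**
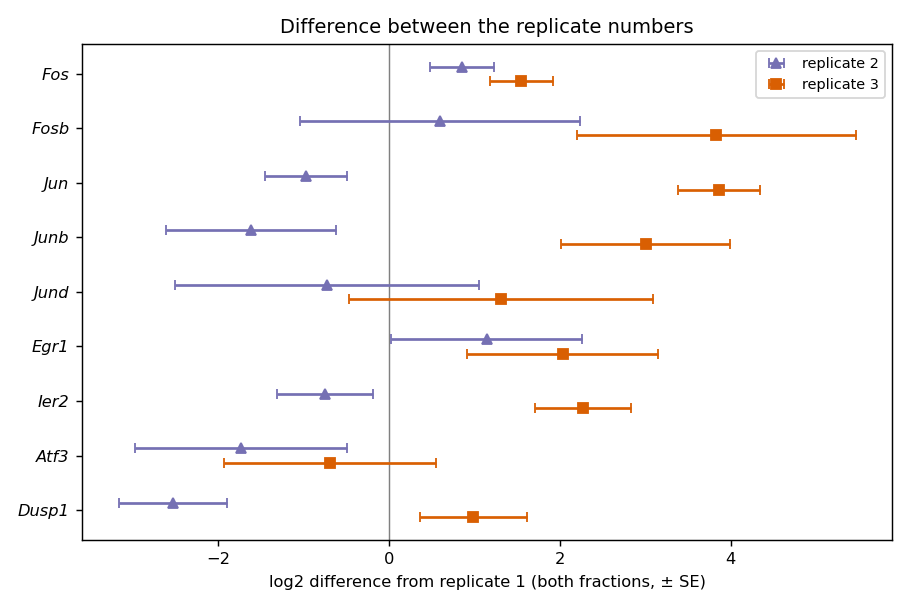
Log2 difference of replicate 2 (triangles) and replicate 3 (squares) from replicate 1 over both fractions, ± standard error, for each gene. Jun (3.86), Junb (3.01), Ier2 (2.28) and Dusp1 (0.99) have a triangle left of 0 and a square right of it by more than their standard errors, and Atf3 is the only gene with its square left of 0.

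By the quasi-likelihood test none of the 9 genes passed the threshold, nor did any of all genes (0%), with a smallest adjusted p = 0.137. At an unadjusted p under 0.05 there were 5 of 9 members (*Fos*, *Jun*, *Junb*, *Ier2* and *Dusp1*), beside 12.4% of all genes. The likelihood ratio test called *Jun*, *Junb*, *Ier2* and *Dusp1*, with adjusted p-values by edgeR of 1.1e-10, 0.0157, 0.0106 and 0.0189, beside 6.42% of all genes. DESeq2's likelihood ratio test also called 4 members, beside 7.59% of all genes, and limma-voom called *Jun* alone, beside 0.796%. Without Vmed replicate 1, the quasi-likelihood test called 7 members (all but *Jund* and *Atf3*), but it then called 20.7% of all genes. Without Vhigh replicate 1 it called *Jun*, *Junb*, *Ier2* and *Dusp1*, beside 5.27% of all genes. *Jun* was also called without Vmed replicate 2 (0.294% of all genes), Vmed replicate 3 (0.431%) and Vhigh replicate 3 (0.979%). It was not called without Vhigh replicate 2, when no gene was (0%).

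Replicate 3 was the highest library within both fractions for 8 of 9 members, all but *Atf3*, and for 22.4% of all genes. Both libraries numbered 3 lay above the other 4 for 6 members (*Fosb*, *Jun*, *Junb*, *Jund*, *Ier2* and *Dusp1*), and for 17% of all genes. Both libraries numbered 2 lay below the other 4 for *Jun*, *Junb*, *Jund*, *Ier2* and *Dusp1*, and for 4.34% of all genes. The count for replicate 3 was 6 under all 4 normalizations, but that for replicate 2 was 3 (*Junb*, *Ier2* and *Dusp1*) with upper quartile or library size scaling. Over all genes, the median log2 difference from replicate 1 was 0.47 for replicate 2 and 0.47 for replicate 3. The members lay on either side of that, with medians of -0.75 and 2.03. The replicate number held 97.0% of the sum of squares of log2 CPM over the 6 libraries for *Ier2*, 96.8% for *Jun*, 95.9% for *Junb* and 91.9% for *Dusp1*. Of all genes, 3.48%, 3.81%, 5.08% and 9.76% had a higher share than these 4 members. For *Jund*, *Fosb*, *Egr1* and *Atf3* the replicate number held 74.5%, 64.8%, 31.4% and 25.6%, against a median of 55.1% over all genes. For *Fos* it held 30.2% and the fraction 67.0%, and for *Egr1* the fraction held 43.4%, against a median of 11.3% over all genes.

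Pearson correlations over the 6 libraries, given as a description, restate the same grouping, since they come from the same values. The r was 0.97 between *Jun* and *Ier2*, 0.92 between *Jun* and *Junb*, and 0.90 between *Junb* and *Dusp1*. It was also 0.90 between *Fos* and *Egr1*, but 0.33 between *Fos* and *Jun* and -0.11 between *Egr1* and *Dusp1*. *Fosb* stood between, with 0.82 to *Fos* and 0.77 to *Jun*. *Atf3* had its highest value, 0.51, with *Dusp1*. All of these points share the same 6 libraries and their depth.

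Other measures of the libraries differed with the replicate number. The share of Rn45s was highest in both libraries numbered 3, and the share of alignments outside annotated genes was lowest there, at 8.0% and 7.09% against 16.5% to 35.6% in the other 4. The 12 endothelial markers summed to 1255, 3935 and 5926 CPM in Vmed and to 970, 1372 and 4103 CPM in Vhigh. Of these 12 markers, 8 were highest in replicate 3 of both fractions, beside 22.4% of all genes, and none of the 12 was at 0. Their median log2 difference of replicate 3 from replicate 1 was 2.47, beside 2.03 for the immediate early genes. *Jun*, *Jund* and *Ier2* have 1 exon each, and the 247 tested single-exon genes had a median of 0.91, beside 0.47 over all genes. The part of these measures in the levels of the immediate early genes was not tested, and what else the libraries of a number share cannot be told apart from the number.

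**Figure D5:**
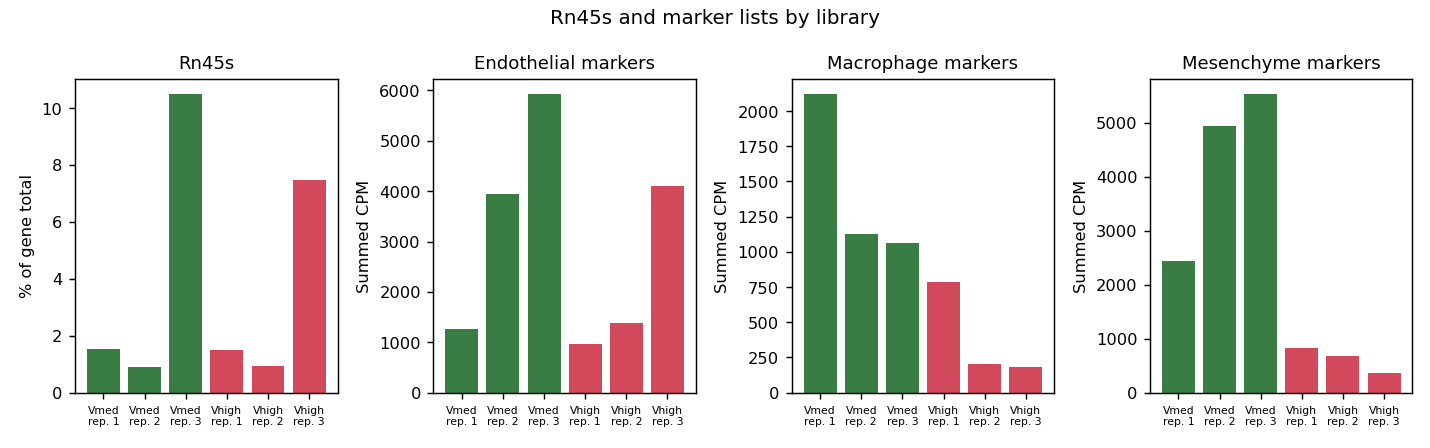
Measures by library (green Vmed, red Vhigh): Rn45s as a percent of gene counts, and the summed CPM of 12 endothelial, 12 macrophage and 12 mesenchyme markers. Rn45s and the endothelial sum are highest at number 3 of each fraction, and the macrophage and mesenchyme sums are higher in each Vmed library than in any Vhigh library.

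The promoters of the members were searched for the elements of this pathway, since several of these genes had a shared pattern over the libraries. Windows of 250 bases before to 50 after the start site were given by RefSeq (GRCm38.p6) for 7 members, with *Egr1* and *Ier2* not analysed here. The RefSeq start lay at or near the gene start printed for *Fos*, *Fosb*, *Jun* and *Junb*. It lay 1.2 kb before that start for *Jund*, and within the gene span for *Atf3* and *Dusp1*, 34.7 and 53.7 kb downstream of it. Both strands were searched for the CRE TGACGTCA, its short form TGACG (which TGACGTCA contains on each strand), the AP-1 element TGANTCA and the CArG box. The windows of *Fos*, *Fosb*, *Junb*, *Atf3* and *Dusp1* held a CRE or short form, shown here 5′ to 3′ on the strand of the gene with the matched letters in capitals.
Fos, plus strand, chr12:85473813-85473840, match 66 bases before the start: gttccgcccagTGACGtaggaagtccat
Fos, plus strand, chr12:85473750-85473777: gggcgtagagtTGACGacagagcgcccg
Fosb, minus strand, chr7:19310089-19310116: ggagttgcgggTGACGcaagcgcggggg
Junb, minus strand, chr8:84978838-84978865: cttcctgacagTGACGcgagccgcctcc
Atf3, minus strand, chr1:191183324-191183351, match on the opposite strand: taatagcattaCGTCAgcctgggattgg
Dusp1, minus strand, chr17:26508598-26508625, full CRE: gtagggcgggTGACGTCAccgcccggtc
Dusp1, minus strand, chr17:26508647-26508674: tcctaggccgaTGACGtctttgcttttg
Over all 27025 promoter windows, 21% held the short form and 1.88% the full CRE. The windows given for *Jun* and *Jund* held none of the letters searched, and no window of the 7 held TGANTCA (7.93% of all windows) or a CArG box (1.57%). The matches did not follow the shape that *Jun*, *Junb*, *Ier2* and *Dusp1* shared over the replicate numbers. Of these genes, *Junb* and *Dusp1* held a match, *Jun* held none and *Ier2* was not searched, while *Fos*, *Fosb* and *Atf3*, without that shape, held matches too. Elements farther than 250 bases before the start, or written with other letters, would not have been found. A match is a description of the letters in the window and not of binding.

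Genes around the members in the same response were compared from 5 lists written by hand. In none of them did a gene pass the threshold by edgeR's quasi-likelihood test, between fractions or replicate numbers. At an unadjusted p under 0.05 between the replicate numbers there were 6 of the other immediate early genes, 1 AP-1 gene, 1 phosphatase or feedback gene, 4 upstream genes and 3 heat shock genes, beside 12.4% of all genes. Of 44 other immediate early and rapid response genes, 40 were tested, with 28 fitted lower and 12 higher in Vhigh (median -0.34, or -0.95 without Vhigh replicate 3). Among them 16 were highest in replicate 3 of both fractions, beside 22.4% of all genes. Over the 40 genes, the median log2 difference of replicate 3 from replicate 1 was 1.13. The most abundant, *Id3*, an inhibitor of bHLH factors, was at 975, 447 and 427 CPM in Vmed and at 241, 184 and 122 CPM in Vhigh. It was the only listed gene with an unadjusted p under 0.05 between the fractions (log2 difference -1.79, standard error 0.52, unadjusted p = 0.0070, adjusted p = 0.9998 by edgeR's quasi-likelihood test). Its Vhigh libraries all lay below the Vmed libraries, as for *Fos*, but it was lowest in replicate 3 of both fractions. The next in abundance, *Plk2* and *Klf6*, overlapped between the fractions (log2 fold changes -0.58 and -0.23).

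Of 16 other AP-1 and related bZIP genes, 13 were tested, 7 of them fitted lower and 6 higher, with a median of -0.03, or 0.19 without Vhigh replicate 1 and 0.13 without Vhigh replicate 2. *Atf4*, a stress-responsive bZIP factor, was at 184 to 248 CPM in all 6 libraries, a narrower range than that of *Atf3* (5.89 to 82.6 CPM). *Atf2*, a partner of JUN, differed by 0.50 on the log2 scale (standard error 0.54). *Maf*, a large MAF factor, was lowest in replicate 3 of both fractions, where all members but *Atf3* were highest. It was at 196, 102 and 12.7 CPM in Vmed and 76.4, 1.20 and 0.0831 CPM in Vhigh, the last below the level of 3 counts.

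Of 13 other MAP kinase phosphatases and feedback inhibitors, all were tested, with 9 fitted lower and 4 higher (median -1.15). Of these 13 genes, 5 were highest in replicate 3 of both fractions, beside 22.4% of all genes. *Dusp6*, a cytoplasmic MAP kinase phosphatase, was at 164, 451 and 205 CPM in Vmed and 37.7, 102 and 195 CPM in Vhigh. *Dusp2*, a nuclear relative of *Dusp1*, was at 0.686, 5.30 and 49.2 CPM in Vmed and 121, 12.7 and 109 CPM in Vhigh, higher in Vhigh in each pair as *Dusp1* was. *Spry2*, an inhibitor of receptor tyrosine kinase signaling, was lowest in replicate 3 of both fractions, at 10.6 and 8.72 CPM. The median of these 13 genes was 0.01 without Vmed replicate 1, -0.64 without Vmed replicate 3 and -0.75 without Vhigh replicate 1.

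Of 20 MAP kinases and SRF, TCF and CREB factors, 10 were fitted lower and 10 higher (median -0.05, between -0.46 without Vhigh replicate 3 and 0.26 without Vmed replicate 3). Of these 20 genes, 7 were highest in replicate 3 of both fractions, beside 22.4% of all genes. *Elk3* and *Rps6ka1* overlapped between the fractions (log2 fold changes -0.43 and 0.88). Of 14 heat shock and chaperone genes, 12 were tested, 3 fitted lower and 9 higher (median 0.16). Of these, 2 (*Hspa1a* and *Bag3*) were highest in replicate 3 of both fractions, beside 22.4% of all genes. The summed level of the list was 8486, 12965 and 9263 CPM in Vmed and 9261, 12505 and 9695 CPM in Vhigh, highest in replicate 2. *Hsp90ab1*, *Hspa5* and *Hspa8* led this list, with *Hspa5* lower in all Vhigh libraries (1317 to 2015 CPM) than in the Vmed libraries (2256 to 2990 CPM).

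The genes most like the members were found by Pearson's r of log2 CPM with the mean standardised profile of the 9 genes, over 6 libraries and 9548 genes with a mean of at least 10 CPM. The profile was -0.03, -0.47 and 1.16 in Vmed and -0.50, -0.80 and 0.64 in Vhigh. The 8 genes with the highest r were *Rab1b* (0.995), *Tmem132a* (0.993), *Gnas* (0.983), *Rbms1* (0.982), *Ccnd1* (0.979), *Marcksl1* (0.977), *Map7d1* (0.972) and *Gapdh* (0.972). None of them is on the lists of immediate early genes. All 8 had both libraries numbered 3 above the other 4, which follows from the selection, since the profile itself is highest there. *Gapdh*, a glycolytic enzyme often used as a reference, was at 17.7, 7.47 and 119 CPM in Vmed and at 8.35, 9.58 and 92.4 CPM in Vhigh. These values hold uniquely aligned reads only, and how many *Gapdh* reads were left out as not unique is not known. Of the members themselves, *Ier2* (0.96), *Junb* (0.91) and *Jun* (0.91) were nearest to the profile they are part of, and *Egr1* (0.59) and *Atf3* (0.42) farthest from it.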

How the data were processed

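The authors aligned single reads from cDNA libraries (SMARTer protocol) to GRCm38/mm10, with TopHat, Bowtie 1.1.2 and HTSeq in the submitters' processing notes, and deposited raw read counts per gene for each library, without normalization. The gene annotation and the strand setting are not given in the sources used here, so that reads of a gene and an overlapping or antisense partner cannot be told apart. Alignments not assigned to a gene made up 7.09% to 35.6% (outside genes) and 41.3% to 57.7% (not unique) of the alignments in the files and stayed out of library sizes and tests. Libraries were grouped by their labels.

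The members and all gene lists were chosen with earlier results of these data known. Genes were kept by filterByExpr, normalized by TMM and tested with edgeR 4.0.16 (R 4.3.3) by the quasi-likelihood test, in a model of fraction alone, with p-values adjusted over all tested genes (Benjamini-Hochberg, 0.05). The test of the replicate numbers used fraction and replicate. Standard errors come from the information matrix and the quasi-likelihood dispersion. Log2 CPM had a prior count of 2, and exact permutation tests used all 20 arrangements. RPKM used exon-union lengths of GENCODE M21 (22750 symbols matched directly, 916 by another symbol, 396 not). Named were the members, the 3 most abundant tested genes of each list and the 8 genes most like the members; other names were chosen after their values were seen. A gene that this rule names is not reported here. Alternatives were RLE, upper quartile and no normalization, 2 filters, the likelihood ratio test, DESeq2 1.42.0, limma-voom 3.58.1, a replicate block, thinning, removal of Rn45s and leaving out libraries. Added after seeing the data were leaving out both libraries of a number and, for the replicate numbers, limma-voom, DESeq2, library size scaling and removal of Rn45s. The procedure was tested on simulated data with less spread between replicates than the fraction fit had. Recovery of differences at the spread of these libraries was not shown.

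The labels give both fractions the same numbers without saying what a number shares. Same-numbered libraries deviated together from their group means (r = 0.21, 0.21 and 0.39 over genes), each over 0.1, and the numbers were therefore taken as pairs in the replicate block. No 2 libraries had counts within sampling noise (chi-square per degree of freedom 93.7 or more).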

Additional observations from a re-analysis of the deposited data

How the results depend on the processing

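With 3 libraries a fraction, the exact test cannot go below 0.1, and thinning to the smallest library started from 0 calls and could not show an effect of depth. Genes called between the fractions numbered 0 by the quasi-likelihood test, 37 without a filter, 21 by the likelihood ratio test, 86 by DESeq2 and 74 by the replicate block with the likelihood ratio test, and 0 to 1 with a library left out. That last block fit called 1 member (*Fos*) and 1 listed gene (*Id3*); with the quasi-likelihood test the block changed no call. Genes called between the replicate numbers, 0 by the quasi-likelihood test, numbered 815 by the likelihood ratio test, 101 by limma-voom, 901 by DESeq2 and 0 to 2944 with a library left out. The same settings called 4, 1, 4 and 0 to 7 members, and 4, 1, 7 and 0 to 24 listed genes. Of 180 member log2 fold changes under alternatives, 161 kept their direction and 19 reversed, and 1 passed the threshold. *Fos*, *Egr1*, *Atf3* and *Dusp1* kept theirs under each alternative run, though with a library left out they ranged from -2.28 to -1.36, from -2.42 to -1.28, from -1.85 to -0.02 and from 0.06 to 1.80. *Jund* reversed to 0.15 by limma-voom, 0.18 in the replicate block, 0.17 in the block with the likelihood ratio test and 0.54 without both libraries numbered 3. *Junb* reversed to 0.0044 and 0.0055 in these block fits and 0.63 without the libraries numbered 3, and *Ier2* to 0.10 without both numbered 1. With a library left out, the log2 fold changes ranged from -4.19 to 0.047 for *Fosb*, from -2.56 to 3.01 for *Jun*, from -1.95 to 2.49 for *Junb*, from -0.79 to 0.86 for *Jund* and from -1.65 to 1.14 for *Ier2*. Where no cause shows from the setting itself, the cause was not tested. DESeq2 gave an adjusted p for 8 of the 9 members in the fraction comparison, all but *Jun*.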
